A study of Mus musculus with 3 samples.

Results

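This account covers 10 genes of the Notch pathway in embryonic mouse mammary cells: the receptor genes Notch1, Notch2, Notch3 and Notch4, the ligand genes Jag1 and Dll1, and the target genes Hes1, Hey1, Heyl and Nrarp. They were chosen by name, as the probe sets annotated with exactly 1 of these symbols, which gave 18 of 28898 probe sets with a single symbol and 10 of 17097 genes. RNA came from 3 samples of 1 group: cells sorted by flow cytometry from Lgr5-IRES-GFP female embryos at embryonic day 14, for high CD49f (the integrin alpha 6 chain of basal epithelium) and high Lgr5 reporter fluorescence. Each sample pooled every female embryo of 1 litter and was hybridised to 1 Affymetrix array, with no untreated, sorted-negative or other group beside it. The green fluorescent protein marks cells that use the Lgr5 locus, the digested tissue held epidermis together with mammary gland, and either 813 or 2000 cells went into an RNA preparation whose cDNA was amplified for 25 cycles.

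Notch receptors are single-pass membrane proteins that bind Delta-like and Jagged ligands on neighbouring cells. Binding lets an ADAM protease and then gamma-secretase cut the receptor, and the released intracellular domain joins the DNA-binding protein Rbpj in the nucleus and switches on genes such as Hes1, Hey1, Heyl and Nrarp. In the mammary gland the pathway is known for promoting luminal fate, while the basal factor p63 is known to oppose it. By its title, the series asks how p63 turns multipotent embryonic progenitors into unipotent ones.

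All values are log2 expression per probe set, as deposited. With a single group, a gene was set against a background measured on the same array, namely the 95th percentile of 78 olfactory and vomeronasal receptor genes. This threshold stood at 6.29, 6.23 and 6.22 on replicates 1, 2 and 3. A gene was called above background where limma gave a one-sided adjusted p under 0.05 over all genes. The SE and p-values from limma use variances drawn towards those of genes of similar level. For genes with a large spread, such as Nrarp and Notch3, this SE is smaller than the arrays alone would give. Calls with a replicate left out rest mostly on that borrowed variance. A probe set's level depends on its own probes, so genes were not ranked by level, and medians over a list of genes are given as a description alone. Replicate 3 stood apart: its median over all probe sets was 6.52 against 6.25 on each of the others. Across the 28898 probe sets it correlated with replicates 1 and 2 at 0.940 and 0.942, where those correlated with each other at 0.994. The gene behind the reporter, Lgr5, stood at 10.27 ± 0.44 (SD, n = 3), and the CD49f gene Itga6 at 10.37 ± 0.40. The number of arrays limits the precision of every value here.

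Of the 10 genes, 7 were above background in the limma fit (Notch1, Notch2, Notch3, Jag1, Hes1, Hey1 and Nrarp), and Notch4, Dll1 and Heyl were not. Over all genes the share above background was 52.5%. As a description over unlike probe sets, the median log2 height over the threshold was 2.22 for the 10 genes and 0.63 for all genes. Of 40 measured genes restricted to unrelated tissues, 13 also passed this call. With the higher threshold that these 40 genes set, 6 of the 10 were above it, all but Nrarp of those 7, where 30.2% of all genes were. The brightest antigenomic control as threshold also left 6, where 31.6% of all genes were above it. Heyl lay so near the threshold that leaving 4 pseudogenes out of the receptor set, a choice made after seeing the data, put it above background (adjusted p = 0.0255 by limma), which made 8 of 10 where 55.1% of all genes were called.

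**Figure D1:**
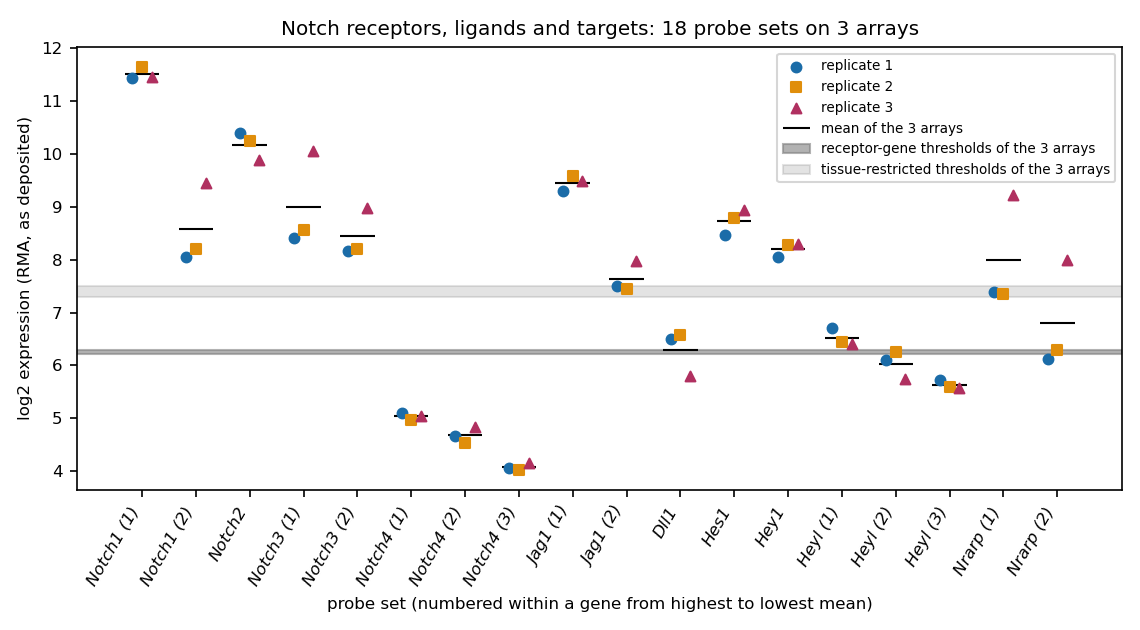
Log2 expression of the 18 probe sets of the 10 genes on the 3 arrays, 1 symbol per replicate, with the mean as a black line and the 2 background thresholds as grey bands. Levels compare between arrays within a probe set and not between probe sets. All 3 probe sets of Notch4 lie below the dark band, and replicate 3 stands well above the others for both probe sets of Nrarp and of Notch3 and for the dimmer probe set of Notch1.

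Notch1 encodes the receptor with the best known role in mammary cell fate. Its brighter probe set, 1418634_PM_at, read 11.43, 11.63 and 11.44 on replicates 1, 2 and 3. The arrays lay within 0.21 of each other, and the mean of 11.50 ± 0.11 (SD, n = 3) was 5.25 above the threshold (SE 0.10; adjusted p = 4.96e-06, limma). The dimmer probe set, 1418633_PM_at, read 8.06, 8.19 and 9.45. It was above background on each array as well (adjusted p = 0.00197 over all single-symbol probe sets, limma), yet replicate 3 exceeded the mean of the others by 1.33, whereas the brighter probe set differed by -0.08. The 2 probe sets of Notch1 thus disagreed on replicate 3.

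Notch2, a receptor gene measured by 1 probe set, read 10.39, 10.24 and 9.87. Its mean of 10.16 ± 0.26 (SD, n = 3) lay 3.91 above the threshold (SE 0.14; adjusted p = 1.79e-05, limma). Replicate 3 was the lowest of the arrays, by 0.44 against the mean of the others.

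Notch3, the receptor gene best known from mural cells of blood vessels, read 8.40, 8.55 and 10.04 on probe set 1421965_PM_s_at. Replicates 1 and 2 lay close together and replicate 3 was 1.56 above their mean. The gene mean of 8.997 ± 0.907 (SD, n = 3) was 2.75 above the threshold (SE 0.37; adjusted p = 0.00115, limma). The second probe set, 1421964_PM_at, read 8.17, 8.19 and 8.98, so replicate 3 was again the highest, by 0.80. The name of the first probe set carries the manufacturer's mark for probes shared between transcripts, and the second does not.

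Notch4, the receptor gene best known from endothelium, was below the threshold on every array with each of its 3 probe sets. Its brightest probe set read 5.11, 4.96 and 5.04, a mean of 5.04 ± 0.07 (SD, n = 3) that was 1.21 under the threshold (height -1.21, SE 0.09). The other 2 probe sets had means of 4.68 and 4.08. A value under the threshold bounds the signal of these probes and does not show that no transcript was there.

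Jag1, which encodes a Jagged ligand, was above background by both of its probe sets. The brighter read 9.30, 9.58 and 9.47, a mean of 9.45 ± 0.14 (SD, n = 3) that lay 3.20 above the threshold (SE 0.14; adjusted p = 2.68e-05, limma). The dimmer read 7.50, 7.44 and 7.96 (adjusted p = 0.00138 over all single-symbol probe sets, limma). Against the threshold of tissue-restricted genes the dimmer stood 0.25 above and was not called (adjusted p = 0.481, limma), while the brighter was. The arrays lay within 0.28 and 0.53 of each other on the 2 probe sets.

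Dll1, which encodes a Delta-like ligand, read 6.51, 6.57 and 5.79. Replicates 1 and 2 were above their thresholds and replicate 3 was below its own. The mean of 6.29 ± 0.43 (SD, n = 3) was 0.04 above the threshold (SE 0.19; adjusted p = 0.700, limma) and was not called. Without replicate 3 it stood 0.27 above and was called (adjusted p = 0.0121, limma), as 56.4% of all genes then were.

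The repressor genes Hes1 and Hey1, direct targets of the Notch intracellular domain, were both above background on every array. Hes1 read 8.47, 8.79 and 8.93. Its mean of 8.73 ± 0.24 (SD, n = 3) lay 2.48 above the threshold (SE 0.16; adjusted p = 9.23e-05, limma). Hey1 read 8.05, 8.27 and 8.30, a mean of 8.20 ± 0.14 (SD, n = 3) that was 1.95 above (SE 0.15; adjusted p = 0.000138, limma). Each was lowest on replicate 1, and the arrays lay within 0.46 and 0.25 of each other. Hes1 is also induced by pathways other than Notch.

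Heyl, another gene of this repressor family, read 6.71, 6.43 and 6.41 on its brightest probe set. All 3 arrays were above their thresholds, but the mean of 6.52 ± 0.17 (SD, n = 3) was only 0.27 above (SE 0.13; adjusted p = 0.0854, limma). Without replicate 3 it stood 0.31 above and was called (adjusted p = 0.0108, limma), as 56.4% of all genes then were. Its other probe sets had means of 6.03 and 5.63, under the threshold. The probe sets of Heyl therefore agreed in lying at or near background.

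Nrarp encodes a small ankyrin-repeat protein that is induced by Notch, acts as its feedback inhibitor and is also known to stabilise the Wnt factor Lef1. Probe set 1417986_PM_at read 7.39, 7.35 and 9.23, and probe set 1417985_PM_at read 6.12, 6.28 and 7.99. Replicate 3 exceeded the mean of the others by 1.85 on the first and 1.79 on the second, so both reported the same difference. The first gave a mean of 7.99 ± 1.07 (SD, n = 3), 1.74 above the threshold (SE 0.43; adjusted p = 0.0111, limma), and 1.11 above without replicate 3, still called. The second was on average 0.55 above and was not called (adjusted p = 0.245 over all single-symbol probe sets, limma). Without replicate 3 it stood at -0.06. Without replicate 1 it stood at 0.91 and was called. Replicates 2 and 3 lay 0.05 and 1.77 above their thresholds, so this call rests on variance borrowed across genes. Against the threshold of tissue-restricted genes the first stood 0.60 above and was not called (adjusted p = 0.248, limma).

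At the level of probe sets, 10 of the 18 were above background in the limma fit, where 46.8% of all single-symbol probe sets were. The 8 others were all 3 of Notch4, all 3 of Heyl, that of Dll1 and the dimmer one of Nrarp. Nrarp was the gene among the 10 whose probe sets lay on both sides of the call. Over all 7180 genes with several probe sets, 40.7% had probe sets on both sides.

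Litters were measured once each, so differences between arrays have no replicate and were described without a test. The range over the 3 arrays had a median of 0.46 for the 7 genes above background among the 10 and of 0.48 for all 8972 genes above background, and of 0.53 and 0.45 after quantile normalization. By their brighter probe sets, Nrarp (1.88) and Notch3 (1.64) had ranges larger than those of 99.2% and 98% of these genes. The dimmer probe set of Nrarp had a range of 1.87, but that of Notch3 had 0.81. Hey1, Jag1 and Notch1 had ranges of 0.25, 0.28 and 0.21 by their brighter probe sets, larger than those of 22%, 24.9% and 16%. These small ranges depended on the normalization: after quantile normalization they were 0.39, 0.53 and 0.51, while those of Nrarp and Notch3 were 1.47 and 1.22. The mean of both Notch1 probe sets had a range of 0.71.

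Nrarp and Notch3 were the genes among the 7 above background in which replicate 3 exceeded the mean of the other arrays by over 1 on the log2 scale, which is over 2-fold. Of all genes above background, 9.2% did so, and 1.29% were that far below. Over probe sets above background the share was 11.2%, and 3 of the 10 member probe sets above background did so, 1 each of Notch1, Notch3 and Nrarp. When the 3 arrays were quantile normalized, so that all share 1 distribution, 2.79% of these genes and 3.5% of these probe sets still exceeded 1. Nrarp then had differences of 1.45 and 1.44 on its probe sets and Notch3 of 1.14 and 0.37, while the dimmer probe set of Notch1 had 0.90. Notch2 and Dll1 differed by -0.85 and -1.01 after that step. The targets Hes1 and Hey1 moved from 0.31 and 0.14 to -0.12 and -0.27, so the sign of their small differences depended on the normalization.

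**Figure D2:**
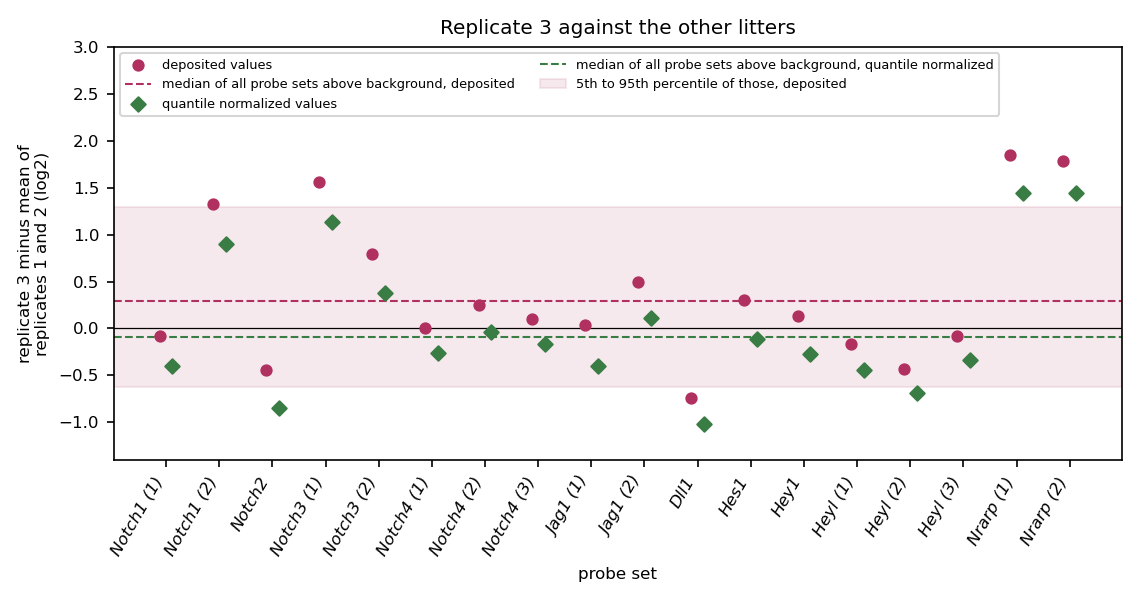
Difference between replicate 3 and the mean of replicates 1 and 2, in log2, for the 18 probe sets, from the deposited values (circles) and after quantile normalization (diamonds). The dashed lines are medians over all 13529 probe sets above background (0.29 deposited and -0.09 normalized) and the band spans the 5th to the 95th percentile of the deposited differences, -0.62 to 1.29. Both probe sets of Nrarp, 1 of Notch3 and the dimmer of Notch1 lie above the band.

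Agreement between probe sets on such a difference was not common on these arrays. Among 3130 genes with at least 2 probe sets above background, 788 had a probe set on which replicate 3 exceeded the others by over 1, and all called probe sets of the gene did so in 64 of these, or 8.12%. Notch1 and Notch3 were among the 788 and not among the 64. Nrarp was outside this count because its second probe set was not above background.

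Other genes shared the array pattern of Nrarp, the gene among the 7 with the largest range. The 3 closest by Euclidean distance between values centred on their mean over the 3 arrays were Casd1 (distance 0.02), Egfl6 (0.03) and Fmr1 (0.03). Within a distance of 0.25 lay 97 of the 8971 other genes above background. A pattern over 3 arrays holds little information, and likeness here mostly reports how far replicate 3 stood above the others.

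The promoters of the 2 genes with the largest differences between arrays are shown because the pathway acts through short sites near such starts. A promoter sequence was matched for 7 of the 10 genes. None was matched for the target genes Hes1, Hey1 and Heyl, so the motif counts below do not cover them. The sequences are the 250 bases before the start, 5′ to 3′ on the strand of the gene, from RefSeq on GRCm38.p6. Nrarp lies on the plus strand at chr2:25180508-25180757 and Notch3 on the minus strand at chr17:32166891-32167140. Capitals mark matches to TGGGAA, the core that Rbpj is known to bind, on either strand, and to CACGTG, a palindromic E-box of the kind that Hey proteins, among many other factors, can bind.
Nrarp: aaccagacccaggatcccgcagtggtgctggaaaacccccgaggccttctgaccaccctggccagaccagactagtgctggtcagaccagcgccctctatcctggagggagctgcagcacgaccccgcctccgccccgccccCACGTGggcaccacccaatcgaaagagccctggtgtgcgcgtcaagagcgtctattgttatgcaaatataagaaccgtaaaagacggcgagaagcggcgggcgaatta
Notch3: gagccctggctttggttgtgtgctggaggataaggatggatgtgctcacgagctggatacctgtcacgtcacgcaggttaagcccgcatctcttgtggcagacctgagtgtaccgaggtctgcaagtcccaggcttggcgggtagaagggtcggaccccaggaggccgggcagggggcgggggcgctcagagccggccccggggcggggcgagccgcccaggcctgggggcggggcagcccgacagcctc
The Nrarp window held 1 CACGTG, which begins 108 bases before the start, and no TGGGAA. The Notch3 window held neither. Of 32851 RefSeq promoter windows of the same length, 21.6% held TGGGAA on either strand and 6.02% held CACGTG. None of the 8 windows of the 7 matched genes held TGGGAA, and CACGTG was in that of Nrarp alone. The 2 motifs share no overlapping match here. No match says only that these letters are not in this window.

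The other genes of the pathway were counted by role, from lists that hold the 10 genes as well. Of 48 measured pathway genes 33 were above background in the limma fit, and of the 38 that are not among the 10, 26 were, against 52.5% of all genes. As a description over unlike probe sets, the median height over the threshold was 1.74 for the 48 and 0.63 for all genes. At the tissue-restricted threshold 24 of the 48 were called, where 30.2% of all genes were. Among them were 2 of 4 genes of ligand endocytosis, 2 of 5 of receptor glycosylation, 6 of 8 of receptor cleavage and 4 of 8 of receptor turnover. Neurl1a, Poglut1, Numbl and Itch were among the genes not called at it.

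**Figure D3:**
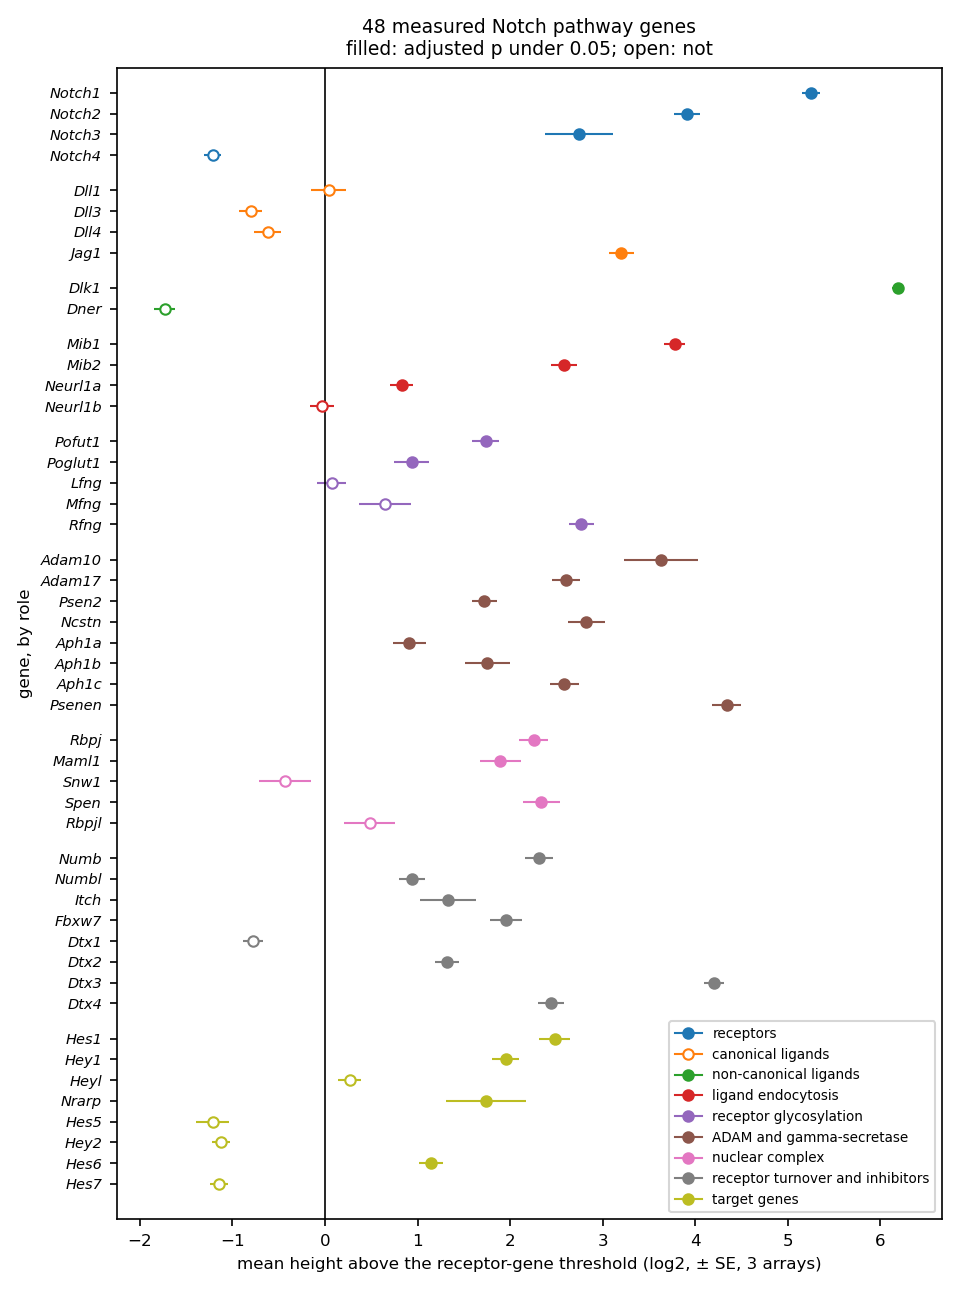
Mean height above the receptor-gene threshold over 3 arrays, in log2 with the SE from limma, of 48 measured Notch pathway genes. Rows are grouped and coloured by role, and the SE uses variance borrowed across genes. Filled points passed the limma test and open points did not. All 8 protease genes are filled, while of the 4 canonical ligands only Jag1 is.

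The counts by role that follow stand beside a share of 52.5% among all genes, and with so few genes each they were not tested. Of 4 measured canonical ligand genes, Jag1 was called and Dll1, Dll3 and Dll4 were not. Dll3 (5.45 ± 0.19, SD, n = 3) and Dll4 (5.63 ± 0.25), a ligand gene known from endothelium, lay under the threshold on average. Dlk1, a Delta-like gene without the domain by which canonical ligands activate Notch, stood at 12.44 ± 0.07 and 6.19 above the threshold (SE 0.07; adjusted p = 2.75e-06, limma). Dner, a neural relative, stood at 4.52 ± 0.18. Jag2 was not analysed here.

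Ligand endocytosis, which pulls the bound receptor open, was represented by 3 of 4 genes above background. The ubiquitin ligase genes Mib1 (10.03 ± 0.02, SD, n = 3), Mib2 (8.84 ± 0.19) and Neurl1a (7.08 ± 0.03) were called, and Neurl1b (6.22 ± 0.19) was not. Of the 6 probe sets of Neurl1a, 3 were called. Of 5 glycosyltransferase genes that modify the receptor, 3 were called. These were Pofut1, which adds O-fucose (7.99 ± 0.19), Poglut1, which adds O-glucose (7.19 ± 0.36), and the fringe gene Rfng (9.02 ± 0.10). The other fringe genes were not called: Lfng stood at 6.32 ± 0.31, and Mfng read 7.22, 7.36 and 6.11 on the 3 arrays.

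Receptor cleavage was covered by 8 measured genes of ADAM proteases and gamma-secretase, and all 8 were above background. Adam10, the main sheddase of ligand-bound Notch, read 9.38, 9.22 and 11.04 (adjusted p = 0.000546, limma). Adam17 stood at 8.86 ± 0.21 (SD, n = 3), the presenilin gene Psen2 at 7.97 ± 0.03 and the nicastrin gene Ncstn at 9.07 ± 0.41. Replicate 3 was the highest array for all 8 as deposited, where it was for 63.1% of all genes, and for 4 of the 8 after quantile normalization, where it was for 35.8%.

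Of 5 measured genes of the nuclear complex 3 were above background. Rbpj, the DNA-binding partner, stood at 8.50 ± 0.26 (SD, n = 3), the coactivator gene Maml1 at 8.14 ± 0.45 and the corepressor gene Spen at 8.59 ± 0.38. Snw1 (5.82 ± 0.67) and Rbpjl (6.73 ± 0.68), an Rbpj relative known from the pancreas, were not called. Of 8 genes of receptor turnover and inhibition 7 were called, among them the endocytic adaptor genes Numb (8.56 ± 0.20) and Numbl (7.19 ± 0.15) and the ubiquitin ligase genes Itch (7.58 ± 0.71) and Fbxw7 (8.21 ± 0.29). Dtx1, which is itself a Notch target in lymphocytes, stood at 5.48 ± 0.16 and was not called.

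The list of target genes also holds relatives of Hes1 and Hey1 that were not chosen as proven targets. Of its 8 genes, 4 were above background, Hes1, Hey1, Nrarp and Hes6, a share near the 52.5% of all genes. Hes6 (7.40 ± 0.10, SD, n = 3) encodes a family member known to antagonise Hes1, so its call is no reading of Notch output. Its other probe set, with a mean of 6.58, was not called (adjusted p = 0.0547 over all single-symbol probe sets, limma). Hes5 (5.04 ± 0.40), Hey2 (5.13 ± 0.08) and Hes7 (5.11 ± 0.08), the last known from the segmentation clock of somites, were under the threshold on average. At the tissue-restricted threshold 2 of the 8, Hes1 and Hey1, were called, where 30.2% of all genes were.

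Several of these genes are also known from other cells of embryonic skin, so marker lists were read on the same arrays. In pooled cells, fewer cells of a type and less RNA per cell cannot be told apart. All 7 mammary basal markers were above background, where 52.5% of all genes were, such as Krt5 (12.15 ± 0.16, SD, n = 3), Krt14 (11.38 ± 0.25) and Trp63 (10.53 ± 0.39). At the tissue-restricted threshold 6 of the 7 were called, all but Snai2, where 30.2% of all genes were. The mean log2 level of the list was 9.97, 10.26 and 10.35 on replicates 1, 2 and 3. Of 7 luminal markers 4 were above background, where 52.5% of all genes were. Krt8 stood at 10.07 ± 0.33, Krt18 at 8.89 ± 0.51 and Krt19 at 7.43 ± 0.20, and the list mean was 7.08, 7.27 and 7.67. The luminal markers Foxa1 (4.74 ± 0.39), Elf5 (5.93 ± 0.49) and Krt7 (6.04 ± 0.15) were not called. Epidermal basal cells share the basal markers, so the lists do not tell mammary from epidermal basal cells.

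The cells were gated for high CD49f, yet 7 of 8 dermal mesenchyme markers were above background, where 52.5% of all genes were, with Col1a1 at 12.99 ± 0.15 (SD, n = 3), Col1a2 at 7.99 ± 0.09 and Col3a1 at 12.76 ± 0.13. Pdgfra, the remaining marker, stood at 4.89 ± 0.55, under the threshold. The cells these transcripts came from were not determined. The list mean ran from 10.05 to 10.15 over the arrays. Mesenchyme is known to express Notch2, Jag1 and Dlk1 too, and its part in their values was not tested. Of 12 endothelial markers 2 were above background, where 52.5% of all genes were. None was called at the tissue-restricted threshold, where 30.2% of all genes were. Pecam1 read 8.12, 8.30 and 6.47, and Cdh5 (5.81 ± 0.27) and Kdr (6.35 ± 0.35) were not called.

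Mural cell markers were read beside the replicate 3 difference of Notch3. Of 7 measured markers 4 were above background, where 52.5% of all genes were. At the tissue-restricted threshold 2 of the 7 were called, where 30.2% of all genes were. The list mean was 7.29, 7.17 and 7.44 on replicates 1, 2 and 3. Rgs5 read 6.07, 6.24 and 6.94 and was not called, Pdgfrb read 8.98, 8.92 and 8.61, and Acta2 read 10.08, 8.61 and 9.98. Replicate 3 was the highest for 2 of the 7 markers, and for none did it exceed the others by over 1. The part of mural cells in the Notch3 value was not tested.

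Beside the Nrarp and Notch3 differences, the luminal transcription factor gene Gata3, chosen after its values were seen, read 7.73, 7.96 and 9.25. Of the 7 luminal markers replicate 3 exceeded the others by over 1 for Gata3 alone, while Krt19 and Krt7 differed by -0.33 and -0.27. Replicate 3 was the highest for 5 of the 7 as deposited, where it was for 63.1% of all genes. After quantile normalization it was for 3 of the 7, where it was for 35.8%. Krt10, a keratin gene of suprabasal epidermis where Notch is known to act, read 6.94, 7.70 and 9.18. Of the 8 suprabasal and periderm markers, replicate 3 was the highest for Krt10 alone, and the list mean was 6.80, 6.95 and 6.59. The lower list mean on replicate 3 rested on Krt4, which read 8.96, 8.26 and 5.50. Krt1 stood at 6.66 ± 0.34 (SD, n = 3) and Krtdap at 5.87 ± 0.28, neither called. Leukocyte markers were above background for 2 of 7 genes, where 52.5% of all genes were, with Ptprc at 4.03 ± 0.20, Cd68 at 8.83 ± 0.26 and Csf1r at 6.47 ± 0.14. Their part in the Nrarp values was not tested. The 3′ minus 5′ difference of the manufacturer's transferrin receptor control was -0.61, -0.54 and -0.32 on replicates 1, 2 and 3, and those of actin were -0.56, -0.56 and -0.40. Litter, array, number of sorted cells and normalization cannot be told apart in these differences.

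**Figure D4:**
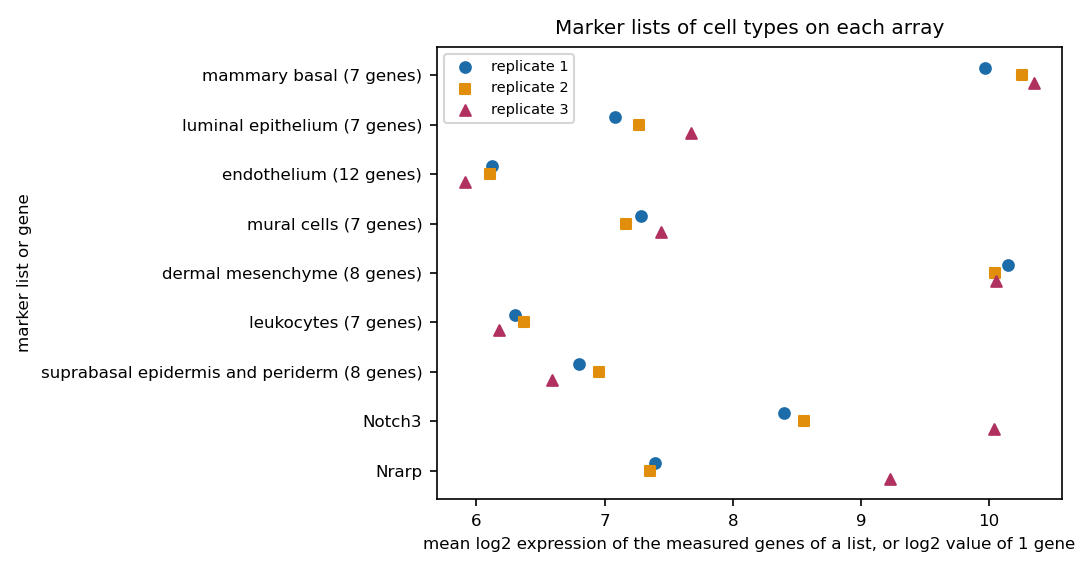
Mean log2 expression of the measured genes of 7 cell type marker lists on each array, with the values of Notch3 and Nrarp below them, 1 symbol per replicate. The luminal list has the widest spread of the 7, from 7.08 to 7.67, whereas replicate 3 stands over 1 above the others for Notch3 and Nrarp. Levels compare between arrays within a row.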

How the data were processed

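The authors deposited 1 table of log2 expression values for 45141 probe sets on 3 arrays. Per the submitters' processing notes these came from RMA and the affy package, with versions, settings and genome build not given in the sources used here. RMA shrinks differences between dim probe sets. The values of replicate 3 are distributed otherwise than those of replicates 1 and 2, so a joint normalization of all 3 cannot be assumed.

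By the platform annotation, 28898 probe sets had a single symbol, 551 several and 15588 none, besides 104 manufacturer controls. Only those with 1 symbol were used. A gene took its probe set with the highest mean. The array's threshold was subtracted and limma 3.58.1 (R 4.3.3) tested whether the remaining mean exceeded 0 (eBayes with a mean trend, one-sided p, Benjamini-Hochberg over 17097 genes, or over 28898 probe sets). The SE and p-values rest on the spread over 3 litters, with variance borrowed across genes, and leave out the threshold's own error. On simulated data for this test (17097 genes), 82%, 92% and 100% of 50 genes set 0.5, 1 and 2 above the threshold were called, and 0% of those 0.5 below it.

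All 10 genes were described by each probe set. Of each role list the first 4 genes above background and the first 3 others were eligible to be named, of each marker list the first 3 measured, and the 3 genes most like the member with the largest range. Hes7, Jag2, Lgr5, Itga6, Gata3, Foxa1, Elf5, Krt7, Krt4 and Pdgfra were named besides, after their values were seen. Members and lists were chosen with earlier results of these data known. Python 3.11.15 and matplotlib 3.10.9 drew the figures.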

Additional observations from a re-analysis of the deposited data

How the results depend on the processing

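Alternatives changed the threshold, the normalization, the variance model, the filter, the probe sets and the arrays used; all but the receptor set without pseudogenes were chosen in advance. The count of the 10 genes above background was 7 in most, 6 with tissue-restricted genes or the brightest antigenomic control as background, 8 without pseudogenes and 10 with the median receptor gene as threshold, where 89.4% of all genes were called. Notch1, Notch2, Notch3, Jag1, Hes1 and Hey1 were called in every one. Median centring shifts an array and its threshold alike, so its heights and calls could not differ from the main ones. With the filter on dim genes 99.4% of the genes kept were called, so its count of 7 tests little. The probe set count rose from 10 to 16 with the median receptor gene, where 86% of all probe sets were called. Leaving out each replicate gave 7 to 9 genes, 10 to 12 probe sets and 33 to 38 pathway genes. Without replicates 1, 2 and 3 in turn, 50.4%, 50% and 56.4% of all genes were called, and 43.9%, 43.6% and 51.1% of all probe sets. The median range over the 10 genes was then 0.17 to 0.38 (without replicate 1 it was 0.17). Heights changed sign for genes near the threshold. With the median receptor gene Notch4 stood at 0.50. Dll1 stood at -0.32 with the 99th percentile, -1.10 with tissue-restricted genes, -1.09 with the antigenomic control, and between -0.11 and 0.27 with a replicate left out (-0.049 without replicate 1, -0.11 without replicate 2 and 0.27 without replicate 3). Heyl stood at -0.10, -0.87 and -0.87 in the first 3 of these and at -0.079 as the mean of its probe sets. The filter on dim genes left no value for Notch4, Dll1 and Heyl. No paired analysis was possible because there is 1 group. Arrays have no count depth, and signal over background limits Dll1, Heyl and Nrarp.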

Other observations

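Probe sets of single pathway genes outside the 10 also disagreed on replicate 3; these genes were chosen after their values were seen. One probe set of Adam10 read 9.38, 9.22 and 11.04 on replicates 1, 2 and 3, and its others read 8.76, 8.58 and 8.96, and 8.42, 8.27 and 8.25. For Mib1, a ligase gene needed for ligand endocytosis, the brightest probe set read 10.01, 10.05 and 10.02, while another read 8.49, 8.48 and 9.91. For Fbxw7, whose product marks the intracellular domain of Notch for degradation, 1 probe set read 8.01, 8.07 and 8.54 and the other 5.99, 6.27 and 8.37.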
